A study of Mus musculus with 6 samples.

Results

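The FoxO and fasting response genes examined here are 9 genes that report on insulin and nutrient state, namely Irs2, Pik3ip1, Foxo1, Foxo3 (listed formerly as Foxo3a), Txnip, Klf15, Pdk4, Angptl4 and Cpt1a. They were taken by gene symbol from the 18138 symbols of the brain table, and each was read by 1 of its 25697 probes. The 9 genes were chosen from their known roles and with their hSRY-ON and hSRY-OFF signals on these same arrays already known, so their differences between the groups are given as a description, with no test. The question addressed was whether genes that answer to fasting and insulin differed between the genotypes. Body weight, feeding and blood glucose were not analysed here.

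RNA came from whole brain of male FVB mice at postnatal day 6, with 3 arrays of hSRY-OFF and 3 of hSRY-ON. Both groups carried a single copy of the Signalox-hSRY transgene at the H11 locus of chromosome 11, in which the CAG promoter, active in nearly all cells, drives human SRY and EGFP once a DsRed2 cassette flanked by loxP sites has been removed. In hSRY-OFF mice the transgene was unrecombined. In hSRY-ON mice it had been recombined by Cre protein from the oocyte of a Ddx4-Cre mother, and the pups used had not inherited the Cre transgene themselves, so the human gene was active throughout the body from the earliest embryo. Whole brain holds many cell types, and fewer cells of a type cannot be told apart from less RNA per cell. The replicate arrays were labelled as separate samples, and nothing in the labels gives their litters. The study describes recombination as highly efficient in pups of Ddx4-Cre mothers and does not give the cross behind the hSRY-OFF arrays. An effect of mother or litter therefore cannot be told apart from that of the group. hSRY-ON array 3 stood apart from the others over the whole table. It lay at -22.2 on the second principal component of all tested probes, where the other 5 arrays lay between 0.0461 and 8.92. Values without this array are given for some differences and calls, and were not computed for correlations or components. Levels below are log2 signals after background correction and quantile normalization, in which 1 unit is a doubling, and a difference is hSRY-ON minus hSRY-OFF.

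Insulin acts through receptor substrates such as IRS2 to activate PI3 kinase and the kinase AKT, and AKT keeps the FoxO transcription factors out of the nucleus. In fasting, insulin falls, FoxO factors enter the nucleus and switch on genes of fuel saving and stress resistance, IRS2 itself among them. PDK4 then restrains the use of glucose by phosphorylating pyruvate dehydrogenase, CPT1A admits fatty acids to mitochondria, and ANGPTL4 inhibits lipoprotein lipase. TXNIP binds thioredoxin and lowers glucose uptake, and its transcription is raised by glucose through the factors MondoA and ChREBP. KLF15, PDK4 and ANGPTL4 are also known to be induced by glucocorticoids. The brain of a suckling pup burns ketone bodies made from milk fat beside glucose.

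The promoters of the 3 genes detected on all arrays whose groups did not overlap, Txnip, Pik3ip1 and Pdk4, are shown with that of Arrdc4, a close relative of Txnip that is described with it below. Each run is the 250 bases before the transcription start in RefSeq (GRCm38.p6), 5′ to 3′ on the strand of the gene, with matches to the motifs searched in capitals.
Txnip, chr3:96557707-96557956 (plus strand): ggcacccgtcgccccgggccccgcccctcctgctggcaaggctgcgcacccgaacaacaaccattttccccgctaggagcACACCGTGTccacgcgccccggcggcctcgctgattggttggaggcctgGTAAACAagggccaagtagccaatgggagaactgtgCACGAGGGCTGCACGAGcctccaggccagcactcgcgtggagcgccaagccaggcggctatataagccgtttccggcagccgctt
Arrdc4, chr7:68749239-68749488 (minus strand): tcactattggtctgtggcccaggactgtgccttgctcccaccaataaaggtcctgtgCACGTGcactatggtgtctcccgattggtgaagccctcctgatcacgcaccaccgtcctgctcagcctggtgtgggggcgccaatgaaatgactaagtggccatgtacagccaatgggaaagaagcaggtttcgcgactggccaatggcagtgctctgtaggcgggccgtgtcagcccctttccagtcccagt
Pik3ip1, chr11:3330481-3330730 (plus strand): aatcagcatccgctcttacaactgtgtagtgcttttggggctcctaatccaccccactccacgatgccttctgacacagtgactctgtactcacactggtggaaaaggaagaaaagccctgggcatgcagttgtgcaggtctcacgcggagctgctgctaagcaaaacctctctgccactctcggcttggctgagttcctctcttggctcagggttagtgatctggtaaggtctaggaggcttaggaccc
Pdk4, chr6:5496279-5496528 (minus strand): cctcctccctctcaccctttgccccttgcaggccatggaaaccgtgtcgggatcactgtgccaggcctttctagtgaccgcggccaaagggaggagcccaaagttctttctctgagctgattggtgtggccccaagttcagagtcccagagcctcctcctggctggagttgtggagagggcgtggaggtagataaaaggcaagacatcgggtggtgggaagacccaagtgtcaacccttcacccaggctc
The motifs, searched on both strands, were the FoxO site GTAAACA, the E-box CACGTG, the carbohydrate response pair, which is 2 copies of CACGNG with 5 bases between them and either of which can be an E-box, and the core of a glucocorticoid receptor site ACANNNTGT. In Txnip the FoxO site lay 121 to 115 bases before the start and the carbohydrate response pair 85 to 69 bases before it. The core of a glucocorticoid receptor site lay 170 to 162 bases before the start of Txnip. Of 32851 promoters of the same length, 3.17% held the FoxO site and 5.84% the glucocorticoid receptor core, whereas 15 (0.0457%) held the carbohydrate response pair. The promoter of Arrdc4 held an E-box 193 to 188 bases before its start, a match found in 6.02% of promoters. No match was found in the windows of Pik3ip1 and Pdk4. The table of promoters matched 8 of the 9 genes. Among the other members with an entry, Irs2 held 1 E-box and Klf15 held 2, while Foxo1, Foxo3 and Cpt1a held none of the 4 motifs. Angptl4 had no entry in the table. Matches of this kind are descriptions of letters and not of binding.

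Of the 9 genes, 7 were detected on enough arrays to be tested with the rest of the table, and Foxo3 and Cpt1a were below background on every array. The mean was higher in hSRY-ON for 6 of the 7 and lower for Foxo1. The median difference of the 7 was 0.39 on the log2 scale, where the median over all 14215 tested probes was 0.0048 with quartiles at -0.14 and 0.14. In 3 of the 7, Txnip, Pdk4 and Pik3ip1, all hSRY-ON arrays lay above all hSRY-OFF arrays, which was so for 13.5% of all tested probes. Txnip alone was called at an adjusted p under 0.05 in the limma fit over all probes, where 2.19% of probes were called in either direction and 0.865% were called higher. That call was lost on leaving out any array except hSRY-ON array 3. Nothing is read from these counts, since the same difference helped to choose the genes.

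**Figure D1:**
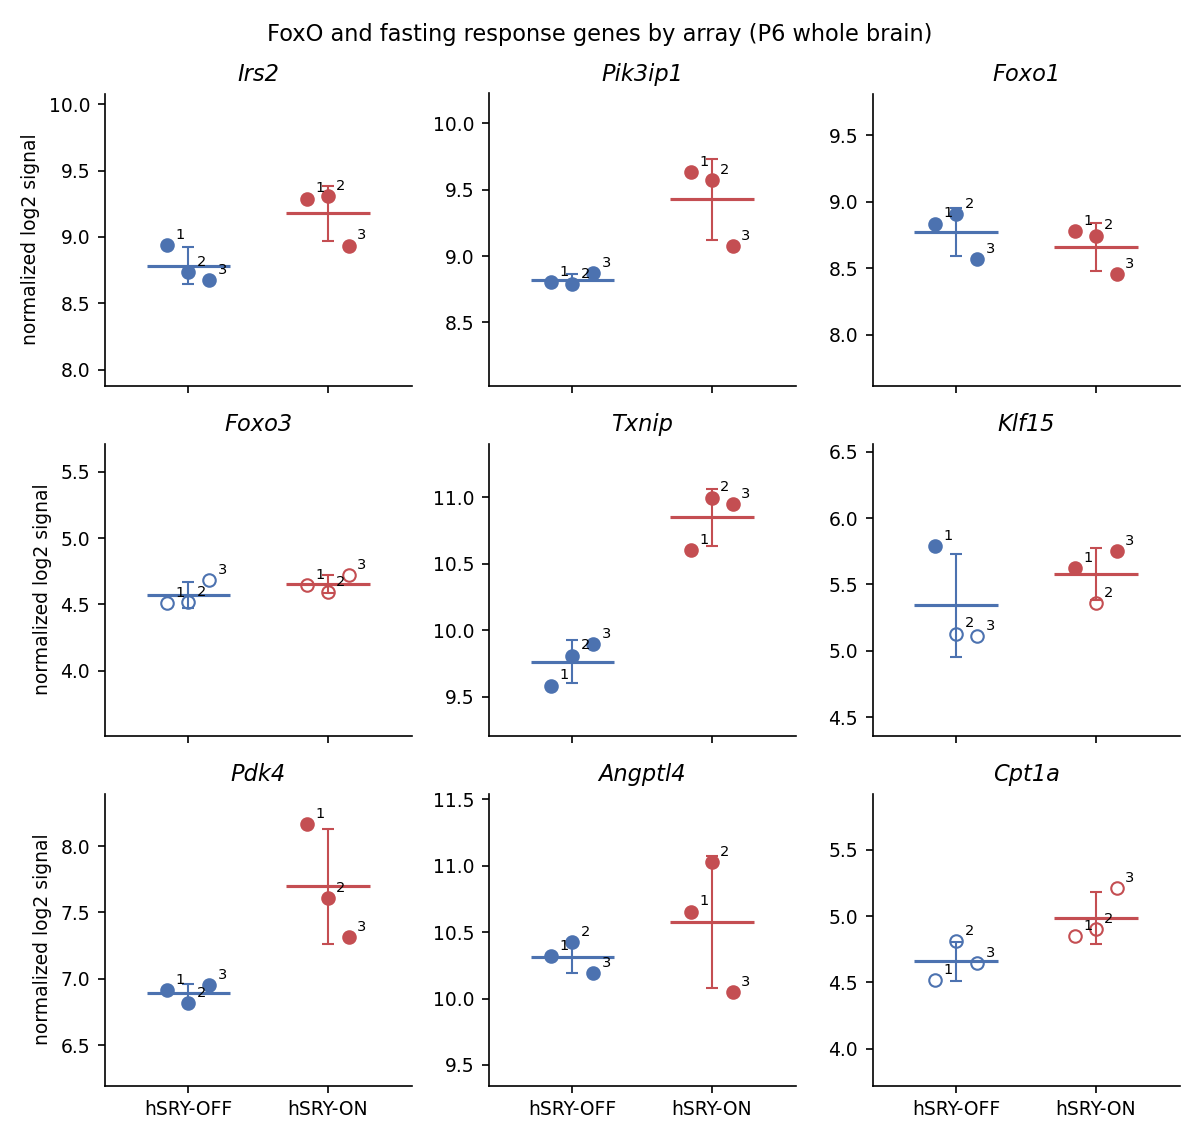
Normalized log2 signal of the 9 genes on the 3 hSRY-OFF arrays (blue) and 3 hSRY-ON arrays (red), numbered by replicate. Lines are group means, bars are 1 SD, open circles are readings not detected above background (detection p of 0.05 or more), and every panel spans the same log2 range. Txnip, Pdk4 and Pik3ip1 separate the groups, whereas Foxo3 and Cpt1a are undetected throughout.

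Of the genes of insulin signalling, Irs2 encodes the adaptor that links the insulin receptor to PI3 kinase. In the order of the replicate numbers, here and below, its log2 signal was 8.94, 8.74 and 8.68 in hSRY-OFF and 9.29, 9.31 and 8.93 in hSRY-ON. The groups overlapped by the narrowest of margins, since hSRY-ON array 3 sat just under hSRY-OFF array 1. The means were 8.78 ± 0.14 and 9.18 ± 0.21 (SD, n = 3), a difference of 0.39 (SE 0.13) or 1.31-fold. Pik3ip1 encodes a membrane protein that binds PI3 kinase and inhibits it. Its log2 signal was 8.80, 8.79 and 8.87 in hSRY-OFF and 9.63, 9.57 and 9.07 in hSRY-ON. The hSRY-OFF arrays were tightly grouped, and among the hSRY-ON arrays the third stood well below the other two. The mean went from 8.82 ± 0.04 to 9.43 ± 0.31 (SD, n = 3), a difference of 0.61 (SE 0.15) or 1.52-fold.

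Of the FoxO factors themselves, Foxo1 could be read and Foxo3 could not. FoxO1 is controlled mainly by its phosphorylation and its place in the cell, which an array does not read. The log2 signal of Foxo1 was 8.84, 8.91 and 8.57 in hSRY-OFF and 8.78, 8.74 and 8.45 in hSRY-ON. The groups overlapped, and the third array was the lowest of each. The means were 8.77 ± 0.18 and 8.66 ± 0.18 (SD, n = 3), a difference of -0.11 (SE 0.13), which was smaller than its SE. The Foxo3 probe gave 149 to 164 units of intensity and was detected on no array, so no fold is given for it.

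Txnip, the brake on glucose uptake and inhibitor of thioredoxin, showed the largest difference of the 7. The deposited intensities were 1026, 1038 and 1058 in hSRY-OFF and 1738, 2079 and 2050 in hSRY-ON. On the log2 scale these became 9.58, 9.81 and 9.90 in hSRY-OFF and 10.60, 10.999 and 10.95 in hSRY-ON. All hSRY-ON arrays lay above all hSRY-OFF arrays, with a gap between the groups wider than either group. The means were 9.76 ± 0.16 and 10.85 ± 0.22 (SD, n = 3), a difference of 1.09 (SE 0.14) or 2.13-fold. In size this exceeded the differences of 99.8% of tested probes.

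Klf15, a transcription factor of fasting and glucocorticoid response, was near the limit of detection. It was detected on 1 hSRY-OFF array and 2 hSRY-ON arrays. Its log2 signal was 5.79, 5.13 and 5.11 in hSRY-OFF and 5.62, 5.36 and 5.75 in hSRY-ON. The highest reading of all was hSRY-OFF array 1, and the groups overlapped. The means were 5.34 ± 0.39 and 5.58 ± 0.20 (SD, n = 3), a difference of 0.24 (SE 0.20). That difference was 0.06 without background correction and 0.12 without hSRY-OFF array 3.

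The 3 genes of the fuel switch differed from one another. Pdk4 had intensities of 292, 261 and 268 in hSRY-OFF and 444, 333 and 302 in hSRY-ON. Its log2 signal was 6.91, 6.82 and 6.95 in hSRY-OFF and 8.16, 7.61 and 7.31 in hSRY-ON. The groups did not overlap, but the hSRY-ON arrays were spread widely, with array 1 far above array 3. The means were 6.89 ± 0.07 and 7.70 ± 0.43 (SD, n = 3), a difference of 0.80 (SE 0.20) or 1.74-fold. As the probe was dim, the difference depended on the background correction and was 0.42 without it. Angptl4, the secreted inhibitor of lipoprotein lipase, was bright in both groups. Its log2 signal was 10.32, 10.43 and 10.19 in hSRY-OFF and 10.66, 11.03 and 10.05 in hSRY-ON. hSRY-ON arrays 1 and 2 were above every hSRY-OFF array, and the third was below every one. The means were 10.31 ± 0.12 and 10.58 ± 0.49 (SD, n = 3), a difference of 0.26 (SE 0.23). Cpt1a, the liver form of the carnitine transferase at the mitochondrial gate, was below background on all arrays at 157 to 183 units of intensity, and no fold is given for it.

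The members did not share 1 order of the arrays within the hSRY-ON group. hSRY-ON array 3 was the lowest of its group for 5 of the 7 genes (Irs2, Pik3ip1, Foxo1, Pdk4 and Angptl4), as it was for 36.0% of all tested probes. Txnip was lowest on hSRY-ON array 1 and Klf15 on hSRY-ON array 2. Without hSRY-ON array 3 the differences were 0.51 for Irs2, 0.78 for Pik3ip1, 0.995 for Pdk4 and 0.53 for Angptl4. That of Txnip was nearly the same, at 1.03, and that of Foxo1 was -0.01. Without hSRY-ON array 3, 3 of 6 tested members were called, beside 2.98% of all probes. The difference of Angptl4 also moved without hSRY-ON array 2, to 0.04.

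After the group means were taken out, the deviations of Pik3ip1 followed those of Pdk4 (r = 0.83 across the 6 arrays) and Angptl4 (r = 0.82). Irs2 deviated together with Angptl4 (r = 0.80), Foxo1 (r = 0.79) and Pik3ip1 (r = 0.78). Txnip went the other way, with r = -0.70 against Pdk4 and r = -0.56 against Irs2. These values rest on 6 points that share their arrays and are a description. hSRY-ON array 3 held the largest deviation for Pik3ip1 (-0.35), Angptl4 (-0.53) and Irs2 (-0.24). The correlations were not computed without it. Over all 21 pairs the within-group correlation was positive in 11, with a median of 0.18. The first principal component of the 7 genes held 58.1% of their variance and placed the hSRY-OFF arrays at -1.23, -1.81 and -1.89 and the hSRY-ON arrays at 2.47, 2.43 and 0.04. The probes most like this component over the 6 arrays were those of Chst2 (r = 0.9985), Capg, Srrm2, Evi5l and Epc1, and 3.41% of the other tested probes had r above 0.9, so many probes shared this pattern.

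**Figure D2:**
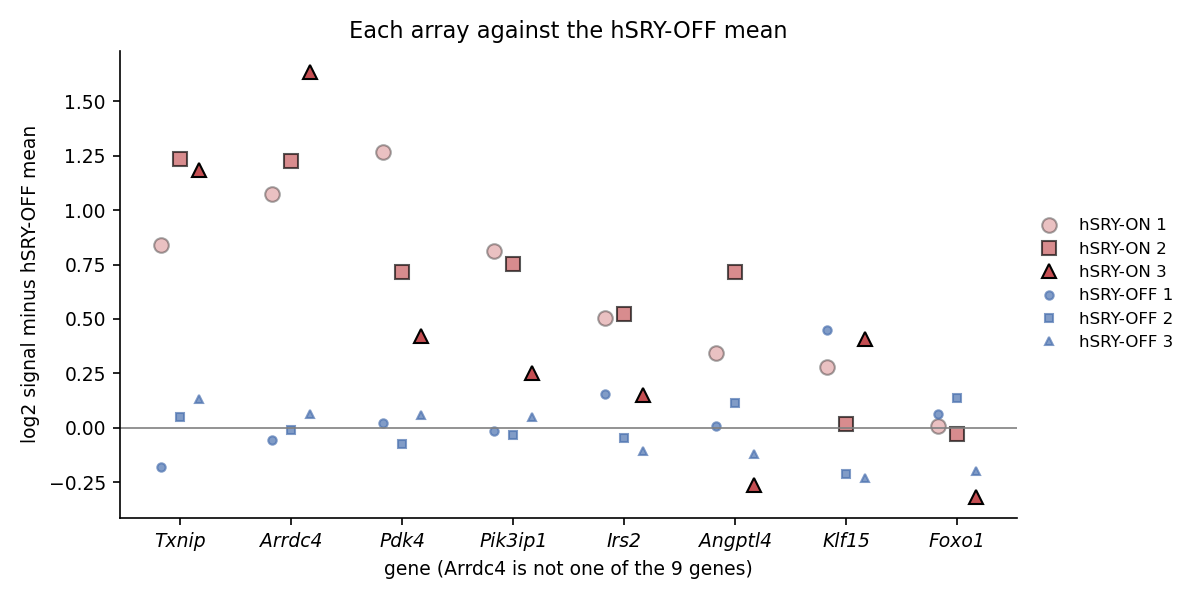
Log2 signal of each array minus the hSRY-OFF mean of the gene, for the 7 tested genes and Arrdc4. Large red symbols are hSRY-ON arrays and small blue symbols hSRY-OFF arrays, with circle, square and triangle for replicates 1, 2 and 3. The triangle of hSRY-ON array 3 is the lowest red symbol for Pdk4, Pik3ip1, Irs2, Angptl4 and Foxo1 and the highest for Klf15 and Arrdc4.

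Among genes of glucose sensing, arrestin domains and thioredoxin, Arrdc4 rose beside Txnip. Arrdc4 belongs to the same family of arrestin-domain proteins and is likewise known as a target of MondoA. Its log2 signal was 10.16, 10.20 and 10.28 in hSRY-OFF and 11.29, 11.44 and 11.85 in hSRY-ON. All hSRY-ON arrays were far above the narrow hSRY-OFF range, and hSRY-ON array 3 was the highest. The mean went from 10.21 ± 0.06 to 11.52 ± 0.29 (SD, n = 3), a difference of 1.31 (SE 0.15, limma adjusted p = 0.0244) or 2.48-fold. The call was kept without hSRY-ON array 3 (adjusted p = 0.0161) and was lost on leaving out any other array, where the difference stayed between 1.29 and 1.43 and the adjusted p between 0.0614 and 0.109. With the group means taken out, Arrdc4 followed Txnip (r = 0.60) and ran against Pik3ip1 (r = -0.93), Irs2 (r = -0.88) and Pdk4 (r = -0.87), again over 6 points. The largest deviation of Arrdc4 was also that of hSRY-ON array 3, at 0.32. Of the 12 tested genes of this list, 8 were higher and 4 lower, 1 was called, and the median was 0.10. Slc2a1, the glucose transporter of the blood-brain barrier and astrocytes, was at 0.60 (SE 0.17, adjusted p = 0.108) with no overlap of the groups, and did not pass. Of the glucose-sensing factors themselves, Mlxip (MondoA) was below background, and Mlxipl (ChREBP) was at 0.05 (SE 0.14, adjusted p = 0.877).

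In the list of FoxO factors and the insulin, PI3K and AKT pathway, none of 22 tested genes was called by limma, and 5 had an unadjusted p under 0.05, a level that 20.9% of all tested probes reached. The median was 0.04, with 13 genes higher and 9 lower. Akt1, the kinase that phosphorylates FoxO factors, had a dim probe detected on the 3 hSRY-OFF arrays and on no hSRY-ON array. It entered the fit through the group where it was higher and has only a bound in the other, so no difference is given for it. The counts above still hold Akt1, among the 9 lower genes and among the 5. Rps6kb1, the S6 kinase, had the smallest p, at -0.63 (SE 0.15, adjusted p = 0.0829). It too was dim, detected on 3 hSRY-OFF arrays and 1 hSRY-ON array, so it also met the filter through the group where it was higher. The counts above hold it as well. Its difference and p are therefore a description only, and the difference was -0.17 without background correction. Its 3 other probes were too dim to test. Of the remaining FoxO factors, Foxo6, a form found mainly in brain, was at 0.28 (SE 0.10, adjusted p = 0.178), with a second, dimmer probe at -0.01, and Foxo4 was below background.

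Of the FoxO target genes outside the 9, 12 of 20 tested were higher and 8 lower, with a median of 0.21 and none called (limma; 6 with an unadjusted p under 0.05, of which 4 were higher). Eif4ebp1, a brake on translation, had the largest difference, 0.57 (SE 0.24, adjusted p = 0.237), which was 0.29 without hSRY-ON array 2. Fbxo32, the ubiquitin ligase atrogin-1 that FoxO factors induce in wasting muscle, had the smallest p, with 0.55 (SE 0.11, adjusted p = 0.0542) and no overlap between the groups. A second probe of Fbxo32 was at 0.51 (adjusted p = 0.310). Fbxo32 was called under 4 of 15 alternative settings, and its difference was 0.23 without background correction. Trim63, Igfbp1 and Pck1, targets known from muscle and liver, were below background.

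Genes of fatty acid oxidation and the PPAR response to fasting were split evenly, with 8 of 16 tested genes higher, a median of 0.0034 and none called (limma; 5 with an unadjusted p under 0.05). Pnpla2, the lipase that opens triglyceride breakdown, stood first by size and by p, at 0.46 (SE 0.11, adjusted p = 0.0769) with no overlap. It did not pass, and it was called under 4 of 15 alternatives. The relatives of Cpt1a could be read where it could not. Cpt1c, the form of neurons, was at 0.18 (SE 0.10, adjusted p = 0.326), and Cpt2 of the inner membrane at -0.01. Cpt1b, the muscle form, was dim and at -0.34 (SE 0.17, adjusted p = 0.305). This probe was detected on 3 hSRY-OFF arrays and 1 hSRY-ON array, so it met the filter through the group where it was higher. A second probe of Cpt1b, detected on 2 hSRY-ON arrays and too dim to test, lay the other way (5.12 ± 0.19 in hSRY-OFF and 5.71 ± 0.31 in hSRY-ON, SD, n = 3). Ppara, Ppard and Pparg, the receptors that induce Pdk4, Angptl4 and Cpt1a in fasted tissues, were all below background.

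In pyruvate dehydrogenase control, none of the kinases related to Pdk4 passed the test. Pdk1 was at 0.37 (SE 0.10, adjusted p = 0.109), Pdk2 at -0.11 and Pdk3 at -0.15. The gene of this list that was called was Mpc2, listed as Brp44, a subunit of the carrier that brings pyruvate into mitochondria. It fell from 8.23 ± 0.03 to 7.65 ± 0.14 (SD, n = 3), by 0.58 on the log2 scale (SE 0.09, adjusted p = 0.0348), where 1.32% of all probes were called lower, and its second probe was below background. This call was lost on leaving out any array except hSRY-ON array 3, with differences from -0.59 to -0.51 and an adjusted p of 0.0759 to 0.121, and without a filter on dim probes (0.0571). The difference was -0.36 without background correction. Of 9 tested genes in the list, 3 were higher and 6 lower, with a median of -0.06.

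Of 8 tested genes of ketone body use and monocarboxylate transport, 4 were higher and 4 lower, with a median of 0.06 and none called (limma; 4 with an unadjusted p under 0.05). Oxct1, the enzyme that commits ketone bodies to use as fuel, was lower in all hSRY-ON arrays, at -0.39 (SE 0.08, adjusted p = 0.0528). It did not pass, and it was called under 6 of 15 alternatives.

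Feeding peptides of the hypothalamus showed no call among 6 tested genes (limma; 1 with an unadjusted p under 0.05). Cartpt, listed as Cart, whose peptide restrains feeding, was at -0.31 (SE 0.09, adjusted p = 0.129). The hunger peptides Npy, at 0.10 (SE 0.09, adjusted p = 0.567), and Agrp, at 0.17 (SE 0.63, adjusted p = 0.909), did not pass, and for Agrp the error was far larger than the difference.

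Genes induced by glucocorticoids, hormones that also induce Klf15, Pdk4 and Angptl4, were higher in hSRY-ON for all 16 tested. Of these, 5 were called higher, as were 0.865% of all probes. Another of the 16, not called, was detected on 3 hSRY-ON arrays and on no hSRY-OFF array. It entered the fit through the group where it was higher, so its direction was set by the filter. Both the count of 16 and the median below include it. Of the 19 listed glucocorticoid-induced genes, 5 also stand in the lists above. Fam107a, an actin-binding protein induced by stress, rose by 2.03 (SE 0.26, adjusted p = 0.0263), Sult1a1, a sulfotransferase, by 1.73 (SE 0.10, adjusted p = 0.00544) and Mt2, a metallothionein, by 0.83 (SE 0.10, adjusted p = 0.0263). Mt1 and Fkbp5 were the others called. Without background correction the differences were smaller, at 0.32 for Mt2 and 1.35 for Fam107a. The median was 0.33, against 0.0048 over all probes. Since the list was chosen with earlier results of these data known, this is a description. The summed signal of the list was 30077 to 31546 in hSRY-OFF and 40647 to 49948 in hSRY-ON. Mt1, the brightest gene, weighs most in that sum, with a mean log2 signal of 13.77 in hSRY-OFF and 14.51 in hSRY-ON. The part of the glucocorticoid-induced genes' signal in the values of Klf15, Pdk4 and Angptl4 was not tested. None of these 5 genes was called once array 1 or 3 of hSRY-OFF or array 2 of hSRY-ON was left out, and Sult1a1 alone was called once array 2 of hSRY-OFF or array 1 of hSRY-ON was.

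**Figure D3:**
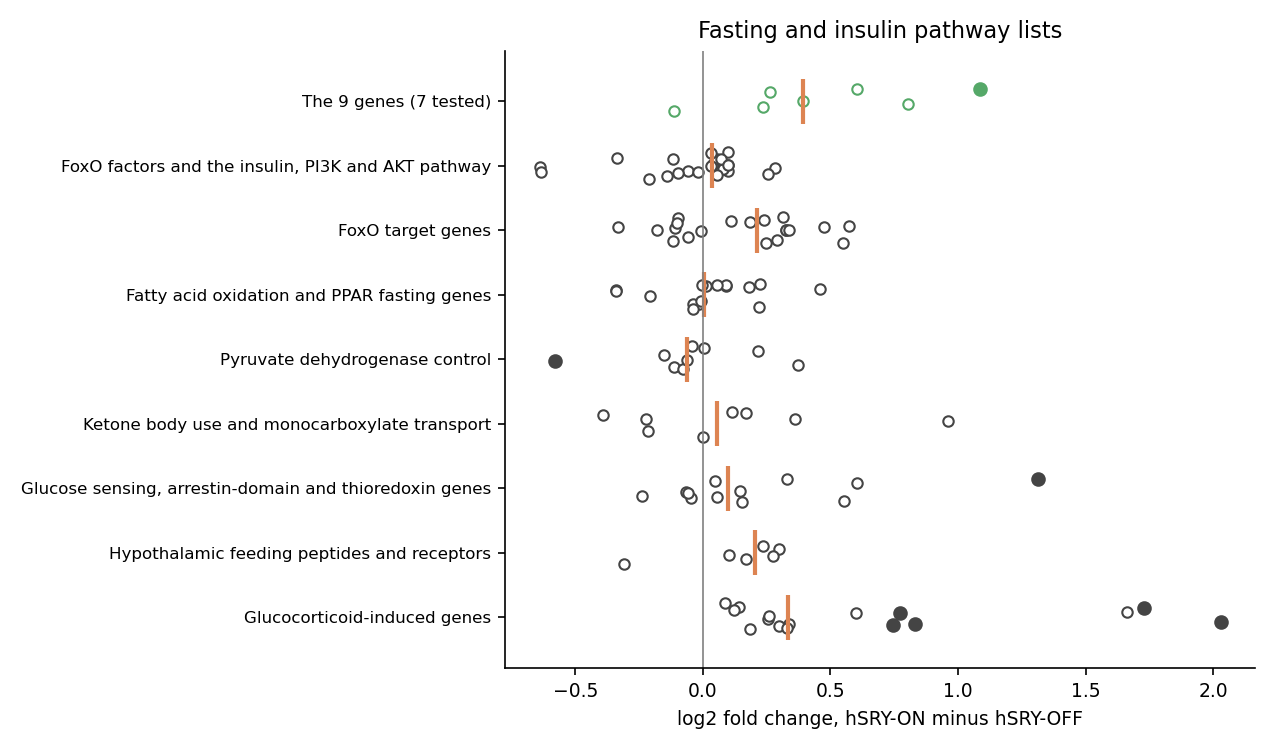
Log2 fold change (hSRY-ON minus hSRY-OFF) of the tested genes, 1 circle a gene, for the 9 genes (green) and each pathway list (grey). Filled circles were called at an adjusted p under 0.05, orange bars are medians, and the vertical position within a row has no meaning. All 16 glucocorticoid-induced genes lie to the right of 0, and the other lists lie on both sides. The lists were chosen with earlier results of these data known, and genes detected in only 1 group are drawn with the rest.

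Pik3ip1 lies on the chromosome that carries the transgene. H11 lies between Eif4enif1 and Drg1, and in the RefSeq gene order Pik3ip1 is the second protein-coding gene beyond Drg1, with Patz1 between them. Of 26 protein-coding genes taken from both sides by position, 18 were in the array table and 13 beside Pik3ip1 were tested. Beyond Eif4enif1 only Sfi1 was tested, as the other genes there were not in the array table. None of the 13 was called by limma, and 4 had an unadjusted p under 0.05, a level that 20.9% of all tested probes reached. Their median was 0.07, in a range from -0.56 (Pes1) to 0.34 (Sfi1), so that Pik3ip1 at 0.61 was above them all. Since Pik3ip1 was chosen with its value known and the others by position, nothing is read from this rank. The genes nearest the site were Eif4enif1, at 0.13 (SE 0.09, adjusted p = 0.465), and Drg1, at -0.06 (SE 0.08, adjusted p = 0.747). Patz1 was at -0.12 and Limk2, on the far side of Pik3ip1, at 0.07. Both groups carried the transgene at this site. The part of its recombination in the value of Pik3ip1 was not tested.

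**Figure D4:**
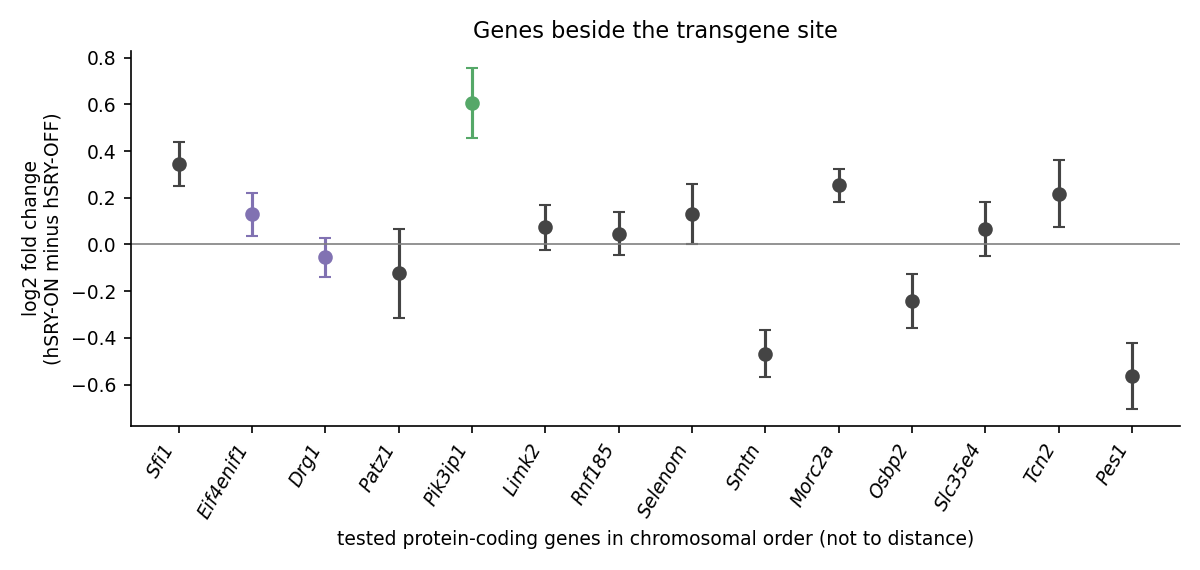
Log2 fold change (hSRY-ON minus hSRY-OFF) with its SE for the tested protein-coding genes in the order of the chromosome, spaced evenly. Eif4enif1 and Drg1, which flank the site, are violet and Pik3ip1 is green. Pik3ip1, chosen with its value known, is the highest at 0.61, with its neighbours Patz1 at -0.12 and Limk2 at 0.07.

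Markers of cell types in which these genes can be expressed were read beside them. Endothelial markers, of cells that express Foxo1 and Slc2a1, were lower for 6 of 8 tested genes with none called and a median of -0.33, and their summed signal was 9367 to 9666 in hSRY-OFF and 7312 to 8081 in hSRY-ON. The endothelial markers Kdr and Abcb1a were below background. Astrocyte markers were higher for 3 of 8 tested genes and lower for 5, with 2 called lower (Gfap and Aqp4). Their sums overlapped, at 44239 to 44397 in hSRY-OFF and 42562 to 48229 in hSRY-ON. Oligodendrocyte markers were lower for all 10, with 2 called (Mobp and Ugt8a). Markers of the choroid plexus were higher for 9 of 10, with Aqp1 called and sums of 16656 to 19686 in hSRY-OFF and 20054 to 25108 in hSRY-ON. Neuronal markers were read for 8 of 10 genes, with none called and a median of -0.01, and Stmn2 and Rbfox3 were bright, while the probes of Snap25 and Nefl were below background. Of 9 microglial markers 7 were higher and none was called, and of 8 markers of pericytes and smooth muscle 3 were higher and 5 lower, with Vtn called lower. No blood marker of 5 was called. Of 9 markers of liver, muscle and fat, tissues in which Pdk4, Angptl4 and Klf15 are abundant, 6 were below background, Alb, Ckm and Adipoq among them. The other 3 of these were Apoa1 and Acta1, both called higher, and Ttr, which the choroid plexus also makes. Over all probes 0.865% were called higher and 1.32% lower, and none of these marker calls was kept when array 1 or 3 of hSRY-OFF or array 2 of hSRY-ON was left out, since no probe of the table was then called by limma (2494, 2435 and 2687 at an unadjusted p under 0.05). The part of these shifts in the values of the 9 genes was not tested.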

How the data were processed

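Total RNA of whole brain was labelled as biotinylated cRNA and hybridized to Illumina MouseRef-8 v2.0 BeadChips. The authors deposited, for each probe and array, a signal intensity on a linear scale that had not been normalized, together with a detection p-value. The submitters' processing notes name limma, and the study's methods name TCC, without settings. TCC was not used here.

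In R 4.3.3 with limma 3.58.1, background was corrected by normexp with negative controls inferred from the detection p-values (798 per array, offset 16), followed by quantile normalization and log2. This correction widens differences and spread of dim probes. Probes with detection p under 0.05 on at least 3 of 6 arrays (14215 probes of 10548 symbols) entered lmFit and eBayes with group as the only term (two-sided), with Benjamini-Hochberg adjustment over all of them. P-values measure the spread between 3 arrays a group, and their number limits the precision. The fit over all probes called 311, of which 123 were higher and 188 lower. Median intensity per array was 200.2 to 220 and 13816 to 14377 probes were detected.

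The 9 members and all gene lists were chosen with earlier results of these data known. A list gene was represented by its brightest probe. Genes named from a list were those called (at most 3 in each direction by size) or, where none was called, those of largest difference and smallest p, besides paralogs of members, glucose sensors, hunger peptides, Slc2a1 and markers named for their known roles. A gene that this rule would name is not reported here. From the genes beside the transgene site, Pes1, Sfi1, Patz1 and Limk2 were named after their values were seen. Symbols absent from the table were matched through synonyms of the RefSeq annotation (GRCm38.p6), which also gave gene order, and promoter sequences came from RefSeq on that assembly. The fit was tested on simulated data. Alternatives were other background corrections, normalizations and filters, a trended prior, array weights, the replicate number as a block, and leaving out each array. Figures were drawn with matplotlib 3.10.9.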

Additional observations from a re-analysis of the deposited data

How the results depend on the processing

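No alternative in which they could be tested turned the direction of the 7 tested members, or of Arrdc4, Mpc2, Rps6kb1, Eif4ebp1, Fbxo32, Pnpla2, Oxct1, Cartpt, Fam107a, Sult1a1, Mt2, Eif4enif1 and Drg1. Of 15 alternatives, 11 gave a value for Klf15 and 14 for Rps6kb1 and Mt2, whose dim probes failed the filter in the rest. The other genes named were not followed one by one. The members' differences ranged over the alternatives from 0.30 to 0.51 for Irs2, 0.48 to 0.78 for Pik3ip1, -0.21 to -0.0093 for Foxo1, 0.97 to 1.21 for Txnip, 0.06 to 0.34 for Klf15, 0.42 to 0.995 for Pdk4 and 0.04 to 0.53 for Angptl4. Counts of calls moved much more. Against 311 probes, 1 member, 7 genes of the pathway lists and 0 genes beside the transgene site, the counts in that order were 1317, 4, 19 and 4 without background correction, 858, 3, 14 and 2 with normexp at an offset of 50, 708, 3, 11 and 2 with detection p under 0.01 required on all arrays, and 1447, 4, 19 and 3 with a trended and robust prior. Without a filter on dim probes 123 probes were called, and with array weights 479 probes and 2 members. Median scaling and cyclic loess left every count within 1.5 times. Leaving out 1 array gave from 0 to 417 probes, 0 to 3 members, 0 to 10 list genes and 0 to 1 site gene. The high ends came without hSRY-ON array 3. Without hSRY-OFF array 2 or hSRY-ON array 1 the count was 1 probe, and without any of the other 3 arrays it was 0. Txnip lost its call on leaving out any array except hSRY-ON array 3. With the replicate number as a block, the counts were 0 probes, 0 members and 0 list genes (limma; 2905, 4 and 29 at an unadjusted p under 0.05), with 0 genes beside the site. Arrays of the same number shared little, with correlations of their deviations of 0.040, 0.029 and 0.025, although each correlated best with its own number, and nothing in the labels pairs them. The cause of these changes in count was not tested. Dim probes such as those of Klf15, Akt1 and Rps6kb1 are limited by signal over background, and for Foxo3 and Cpt1a no difference was detectable.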
